A study of Mus musculus with 27 samples.

Results

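Small nucleolar RNAs (snoRNAs) are short noncoding RNAs that guide the chemical modification of other RNAs, chiefly ribosomal RNA. C/D box snoRNAs direct methylation of the ribose and H/ACA box snoRNAs direct conversion of uridine to pseudouridine, while a few members of both families are needed for cutting the ribosomal RNA precursor. The related small Cajal body RNAs (scaRNAs) guide modification of spliceosomal RNAs. In mammals most are released from introns of host genes, many of which encode ribosomal proteins, and are kept stable by core proteins of their box class.

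The snoRNA and scaRNA genes were followed here through RNA interference (RNAi) experiments in undifferentiated mouse embryonic stem (ES) cells, measured on 27 Affymetrix mouse gene arrays. All probesets whose only gene symbol starts with Snord (C/D box), Snora (H/ACA box) or Scarna were taken, with no filter on their values. They numbered 60 of 35556 probesets and stood for 54 genes. The C/D class had 33 probesets for 31 genes, the H/ACA class 23 for 20 genes and the scaRNAs 4 for 3 genes. All 60 had a mean log2 value of at least 6 over the 27 arrays, from 6.28 for Snord61 to 12.44 for Snora52, against 63.5% of all probesets. On every array singly, 51 of the 60 reached 6. A further 41 probesets whose several symbols include a snoRNA were left out, and the Snrpn and Meg3 cluster snoRNAs had no member with a symbol of their own. For 6 genes there were 2 probesets. Those of Snord118, Snora30 and Scarna17 carried identical values on every array, so each pair is 1 measurement, and the others (Snora3, Snord58b and Snora21) differed by at most 0.29 log2 on any array.

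RNAi was directed at MOF (gene Kat8), which acetylates lysine 16 of histone H4, at MSL1, the scaffold of a complex that holds MOF, and at NSL1. NSL1 may mean Kansl1, a gene of another MOF complex, or Nsl1, a gene of the kinetochore, and the labels leave this unsaid. The female line PGK12.1 came from a cross of a 129 mother with a father of the (129 X PGK)F1 type. The male lines were WD44, from BL6 blastocysts, and E14, a hybrid of a BL6 mother and a Cast father. For MOF in PGK12.1 there were 3 knockdown and 3 control arrays (experiments 1 to 3). Experiments A to E in PGK12.1 had 5 controls in all, beside 3 MSL1 arrays (A to C), 3 NSL1 arrays (C to E) and 2 arrays of MOF and MSL1 together (D and E). Each male line gave 2 arrays after MOF RNAi and 2 controls. Treatment was 100 pmol of siRNA for 48 h, with a negative control siRNA for controls, and the combined knockdown added 50 pmol against Msl1. PGK12.1 experiments 1 and 2 alone had another round of 400 pmol for 24 h, in control and MOF cells alike. The cells were grown on fibroblast feeders, which were depleted on gelatin before RNAi. The labels name separate treatments of each line. The p-values and standard errors rest on a single spread per probeset, pooled over the treatments of all lines and knockdowns. They do not measure the spread of a comparison's own pairs.

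Each knockdown array was set against the control array of the same experiment, and a probeset was called when its limma adjusted p over all 35556 probesets was under 0.05. All differences below are log2 differences, knockdown minus control, with the standard error of the fit. Kat8 was lower after MOF RNAi in PGK12.1 (-1.22 ± 0.065, adjusted p = 1.97e-05), in WD44 (-0.84 ± 0.08, adjusted p = 0.00404) and in E14 (-0.68 ± 0.08, adjusted p = 0.00861). Msl1 was lower after MSL1 RNAi (-0.97 ± 0.071, adjusted p = 0.000692). After NSL1 RNAi Kansl1 was lower (-0.24 ± 0.047, adjusted p = 0.00407), while Nsl1 differed by 0.16 ± 0.063 (adjusted p = 0.122). The 8 ES cell markers lay between 9.56 and 13.86 on all arrays. The 8 feeder fibroblast markers lay between 3.04 and 9.50, 4 of 8 had a mean of at least 6, and their summed level was 9.18 to 11.16 (log2) over the arrays. In bulk samples fewer cells of a type and less RNA per cell cannot be told apart.

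Levels of the snoRNA probesets stepped between sets of arrays as well as with RNAi. In PGK12.1 controls of experiments 1 to 3 their values were lower than in the controls of experiments A to E for 55 of 60 probesets, with a median gap of 0.99, against 0.47 for all probesets with a mean of at least 6. The gap was 3.83 for Snord118, whose mean was 4.16 in the first set of controls and 7.99 in the other, and 3.20 for Snord35a (7.79 and 10.98). Snord61 ran the other way, with 6.92 in experiments 1 to 3 and 6.27 in A to E. The array medians themselves lay between 6.22 and 6.81 in PGK12.1 and E14, and between 7.89 and 7.96 in WD44. They stepped with the same sets, so the sets were not on 1 scale and these gaps are descriptions. In experiments 1 and 2 the members' median was only 1.30 to 1.74 above the array median, against 3.17 to 3.42 in experiments D and E. The 9 probesets of other short noncoding RNAs (small nuclear, Y, 7SK and like RNAs, without U3) with a mean of at least 6 stepped the same way, with a median 2.86 to 3.47 and 5.70 to 6.10 above that of the array. How fully each RNA preparation kept RNAs this short is not known from these data, so differences are of array signal. What part recovery has in the results, or this step in those of experiments 1 to 3, was not tested.

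MOF RNAi in PGK12.1 raised the levels of several snoRNAs and lowered none that passed the test. Of the 60 probesets 15 were called, for 12 of the 54 genes, and all 15 were higher. That is 25.0% of members, where 9.64% of all probesets were called in either direction and 4.49% were called higher. The called genes were 6 C/D snoRNAs, 4 H/ACA snoRNAs and 2 scaRNAs. Whether called or not, 56 of 60 probesets had a difference above 0, with a median of 0.22, against 57.4% of all probesets and a median of 0.03. The rise was of modest size, from 1.14-fold for Snord55 to 1.45-fold for Snora75. In the same arrays 1 of the 8 feeder markers was called higher, S100a4 (0.21 ± 0.06, adjusted p = 0.0491), and the median of the 8 was 0.09. Their summed level was 9.26 to 9.41 (log2) in controls and 9.31 to 9.48 in MOF arrays, and its part in the snoRNA result was not tested.

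Snord104, a C/D snoRNA, had the smallest adjusted p of the members in this comparison. Its log2 values in the controls of experiments 1 to 3 were 9.24, 9.12 and 9.25, and in the MOF arrays 9.66, 9.63 and 9.80. Every MOF array was above every control, and the difference was 0.49 ± 0.05 (adjusted p = 0.000405). Snora75, an H/ACA snoRNA encoded in the nucleolin gene Ncl, went from 7.71, 7.86 and 9.05 to 8.29, 8.76 and 9.19 (0.54 ± 0.119, adjusted p = 0.0162). Its values overlapped between the groups because experiment 3 was higher in both arrays. Scarna8 rose in each experiment, from 6.10, 5.92 and 6.08 to 6.44, 6.65 and 6.51 (0.50 ± 0.115, adjusted p = 0.0203). Snord95 rose from 8.32, 8.30 and 9.09 to 8.65, 8.70 and 9.30 (0.31 ± 0.055, adjusted p = 0.00552). Snord16a went from 9.48, 9.48 and 10.71 to 9.93, 10.07 and 10.80 (0.38 ± 0.084, adjusted p = 0.0175). The 2 probesets of Snora3 rose by 0.32 each and those of Snora21 by 0.22 and 0.32. The remaining called genes, Snord42b, Snord73a, Snord55, Snora7a and Scarna17, rose by 0.19 to 0.35.

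The rise was uneven over the 3 experiments. In experiment 1 all 60 probesets were above 0, with a median of 0.27, and in experiment 2 it was 53 of 60 with a median of 0.30. In experiment 3, which had a single round of RNAi, 36 of 60 were above 0 and the median was 0.09. Medians of all probesets in the same pairs were 0.00, 0.04 and 0.02. Without experiment 2, 3 of the 15 calls were left, without experiment 1 there were 8, and without both, where experiment 3 is the only pair, there was 1, Snord104. Rounds of RNAi and the lower level of these arrays move together here and cannot be told apart. With arrays treated as unpaired in place of the replicate block there were 2 calls, and when each array was centred on its median there were 8. The count also depends on what else is tested: over the 16283 probesets with a mean of at least 6 and a gene symbol, 25 of 60 members were called, all higher, beside 23.4% of those probesets (9.49% higher).

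**Figure D1:**
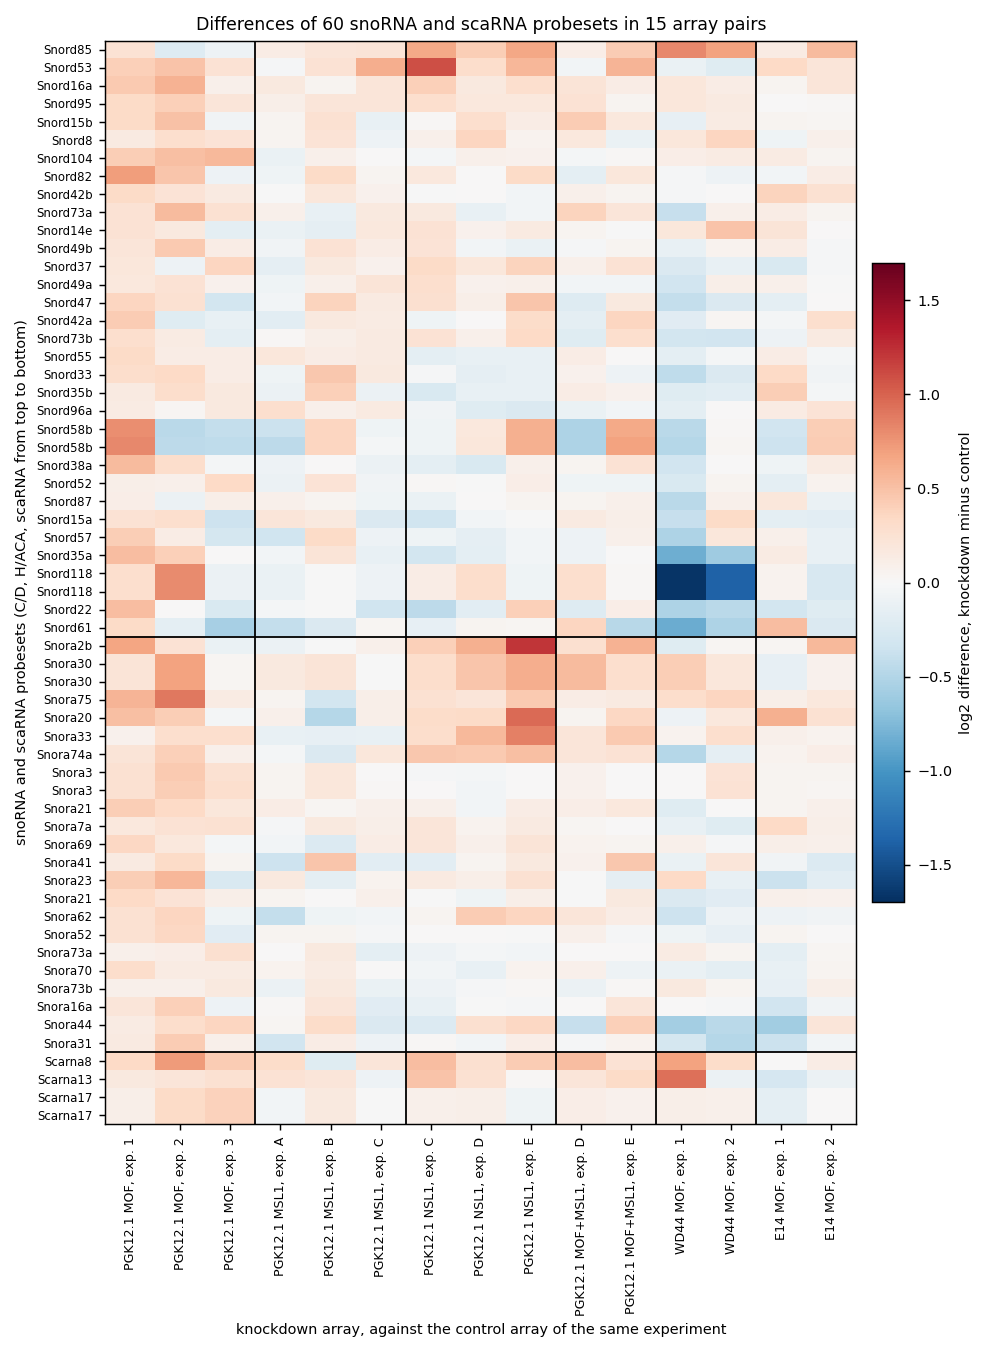
Log2 difference, knockdown minus the control array of the same experiment, for the 60 snoRNA and scaRNA probesets (rows, by box class and then by mean difference) in the 15 array pairs (columns, grouped by knockdown). The MOF columns of PGK12.1 experiments 1 and 2 are mostly red (60 and 53 of 60 above 0), and the deepest blue cells are Snord118 in WD44 (-1.67 and -1.37).

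NSL1 RNAi also left a set of snoRNAs higher, in a comparison in which much of the transcriptome moved. Their number was close to the background of calls in either direction, though not to that of higher calls alone. In it 11 probesets for 10 genes were called, all higher, which is 18.3% of members beside 18.0% of all probesets (9.12% higher and 8.87% lower). The members' differences had a smaller median than in the MOF comparison, 0.06 in experiment C, 0.07 in D and 0.11 in E. Differences above 0.5 were found for 4 called genes. Snora2b, an H/ACA snoRNA, rose 1.63-fold, Snord53 1.53-fold, Snord85 1.49-fold and Snora33 1.47-fold.

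Snora2b had values of 7.02, 6.86 and 6.47 in controls C, D and E and of 7.43, 7.46 and 7.69 in the NSL1 arrays, without overlap (0.70 ± 0.16, adjusted p = 0.009). Snora33 went from 8.78, 8.76 and 8.64 to 9.08, 9.31 and 9.49 (0.55 ± 0.086, adjusted p = 0.000909). Snord85 went from 6.81, 7.17 and 6.82 to 7.46, 7.58 and 7.48 (0.57 ± 0.093, adjusted p = 0.00112). Each of these had its NSL1 arrays above all 3 matched controls. Snord53 went from 10.36, 10.58 and 10.39 to 11.45, 10.87 and 10.96 (0.62 ± 0.135, adjusted p = 0.00725), with its largest step in experiment C. Snora74a, Snora30, Scarna8, Snord37, Snord16a and Snord95 were called with differences of 0.22 to 0.48. Scarna8, Snord16a and Snord95 were called after both MOF and NSL1 RNAi in PGK12.1, which is 25.0% of the 12 genes of the first list and 30.0% of the 10 genes of the other. Over all member probesets 18.3% were called after NSL1 RNAi and 25.0% after MOF RNAi, so the overlap is not far above those shares. Those comparisons have no control array in common but share the pooled spread of the fit. The count was 4 without the NSL1 array of experiment E, 5 without its control and 6 without control D. It was 19 (17 higher and 2 lower) over the probesets with a mean of at least 6 and a symbol, of which 39.8% were called.

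MSL1 RNAi and the double knockdown gave no call among the members. After MSL1 RNAi 3 of 60 had an unadjusted p under 0.05. By adjusted p 0.00844% of all probesets were called by limma, and their share at an unadjusted p under 0.05 was not taken. Snord55 had the smallest unadjusted p of the members, with a difference of 0.16 ± 0.052 (adjusted p = 0.602). The medians of the members were -0.03, 0.16 and 0.01 in experiments A, B and C. After the double knockdown 9 of 60 had an unadjusted p under 0.05, a share likewise not taken over all probesets. By adjusted p 0.717% of all probesets were called. Differences there ran from -0.14 ± 0.175 for Snord22 to 0.40 ± 0.135 for Scarna8 (adjusted p = 0.215), and 47 of 60 were above 0 with a median of 0.06. These 2 comparisons and the NSL1 comparison share control arrays, so their values are not independent of each other.

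MOF RNAi in WD44 cells gave few calls, among them the largest difference of any called member in the 6 comparisons. Snord118, Snord35a and Snord85, all of the C/D class, passed the test there, Snord118 with 2.87-fold lower and Snord35a with 1.64-fold lower levels, and Snord85 with 1.69-fold higher levels. They take up 4 of 60 probesets, or 6.7%, beside 2.60% of all probesets (1.09% higher and 1.51% lower). By gene this is 3 of 54, since the 2 Snord118 probesets are identical. None of the 23 H/ACA probesets was called, where 6 had an unadjusted p under 0.05, a share not taken over all probesets. The other 56 probesets spread to both sides of 0, with 21 above it, 34 below it and a median of -0.08.

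Snord118, also called U8, is required for making the large ribosomal subunit's 5.8S and 28S RNAs. Its control values of 9.51 and 9.56 in WD44 fell to 7.84 and 8.19 in the MOF arrays, a difference of -1.52 ± 0.165 (adjusted p = 0.00553). Both MOF arrays were more than 1 log2 unit below both controls. The medians of these MOF arrays were 7.96 and 7.93, so Snord118 fell to near the middle of each array. In E14 it was 7.96 and 7.99 in controls and 8.02 and 7.72 in MOF arrays, with no common direction. In PGK12.1 experiments 1 to 3 it read 3.80, 3.75 and 4.94 in controls and 4.08, 4.55 and 4.84 in MOF arrays, all below 6. In the MSL1, NSL1 and double-target arrays it stayed between 7.64 and 8.45, with controls between 7.73 and 8.43.

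Snord35a, which guides methylation of ribosomal RNA and lies in the ribosomal protein gene Rpl13a, read 12.23 and 12.12 in WD44 controls and 11.40 and 11.52 in MOF arrays (-0.71 ± 0.122, adjusted p = 0.0184). In E14 its controls were 11.38 and 11.41 and its MOF arrays 11.52 and 11.28, which overlap. In PGK12.1 it ran from 7.24, 7.37 and 8.75 to 7.77, 7.77 and 8.75 (0.31 ± 0.10, adjusted p = 0.0753). Snord85 read 7.56 and 7.93 in WD44 controls and 8.38 and 8.62 in MOF arrays (0.76 ± 0.117, adjusted p = 0.0137). The first of these control values was below the median of its array (7.89) and the other near its own (7.90). In E14 it went from 7.29 and 7.26 to 7.43 and 7.80 (0.34 ± 0.117, adjusted p = 0.19). In PGK12.1 after MOF RNAi it was between 5.42 and 5.86 in every array, and its difference was -0.02 ± 0.096. Snord85 was thus called higher after MOF RNAi in WD44 and after NSL1 RNAi in PGK12.1.

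**Figure D2:**
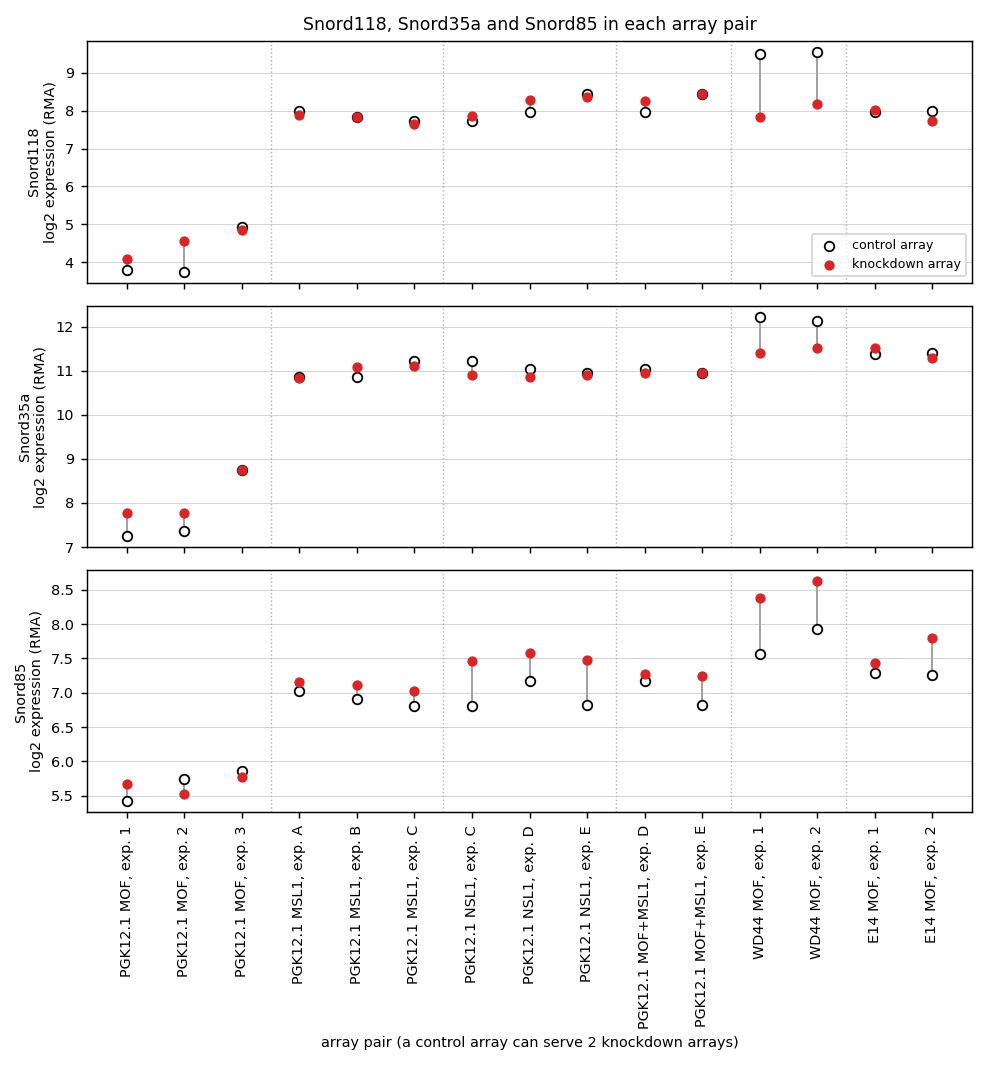
Log2 expression of Snord118, Snord35a and Snord85 (panels, each with its own axis) on the control array (open circle) and knockdown array (red) of each of the 15 pairs. In WD44 the MOF arrays lie below the controls for Snord118 and Snord35a and above them for Snord85, and the PGK12.1 arrays of experiments 1 to 3 lie at much lower levels for all 3.

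The difference between lines was tested as a contrast of the MOF effects. Against PGK12.1, the WD44 effect was lower for Snord118 (-1.85, adjusted p = 0.0205) and Snord35a (-1.02, adjusted p = 0.0487), and 0.0844% of all probesets were called, 0.0562% lower. For Snord118 this contrast rests on PGK12.1 values of 3.75 to 4.94, below the medians of those arrays, where a fall may not be measurable, and its call was lost without either WD44 experiment or PGK12.1 experiment 1 (adjusted p up to 0.113). The Snord35a call was lost with array weights (adjusted p = 0.0836), cyclic loess (0.0551) and median centring (0.0615), and on leaving out any of 24 of the 27 arrays (up to 0.232). Against E14, no member was called by limma and 12 had an unadjusted p under 0.05, a share not taken over all probesets. The contrast was -1.42 for Snord118 (adjusted p = 0.0962), -0.72 for Snord35a (adjusted p = 0.16) and 0.42 for Snord85 (adjusted p = 0.381), with 0.0197% of all probesets called. Against the mean of both other lines Snord118 was called (-1.63 ± 0.197, adjusted p = 0.0419) beside 0.0169% of all probesets (0.0141% lower), and with unpaired arrays it was not (adjusted p = 0.0728). This contrast takes in the same low PGK12.1 values. The next members were Snord35a (-0.87, adjusted p = 0.0724), Snord61 (-0.68), Snora44 (-0.56), and on the higher side Snord85 (0.59, adjusted p = 0.151), Scarna13 (0.41) and Snord14e (0.24).

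The WD44 calls rested on both experiments. Without WD44 experiment 1 no member was called, and without experiment 2 only the 2 Snord118 probesets were. With a single WD44 pair left, the pooled spread holds nothing from WD44, and the Snord118 difference was -1.67 or -1.37. The contrast of Snord118 with the other lines lost its call on leaving out any of 23 of the 27 arrays. Over the probesets with a mean of at least 6 and a symbol, 10 members were called in WD44, 4 higher and 6 lower, beside 12.4% of those probesets.

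Other short RNAs moved in the same WD44 arrays. Rny1, a Y RNA, differed by -1.01 and -1.35 in the 2 pairs (-1.18 ± 0.248, adjusted p = 0.0383). Rny3 differed by -0.72 and -0.35 and the gene of the C/D snoRNA U3, Rnu3a, by -0.88 and -0.15, neither of them called. As a set, the 10 probesets of other short RNAs with a mean of at least 6, U3 included, had 9 below 0 in each pair. Their medians were -0.21 and -0.20, against -0.01 and 0.00 for all probesets with such a mean. Rnu7, whose mean is 4.82, differed by 0.84 and 0.60. The microRNA probesets with a mean of at least 6 ran upward, with medians of 0.28 and 0.16 over 105 probesets. Of the 8 feeder markers Col1a1 (0.38, adjusted p = 0.0272) and Col3a1 (0.30, adjusted p = 0.0415) were called higher in WD44, and the summed level of the 8 was 10.93 and 11.05 (log2) in controls and 11.11 and 11.16 in MOF arrays. The part of these in the snoRNA results was not tested.

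**Figure D3:**
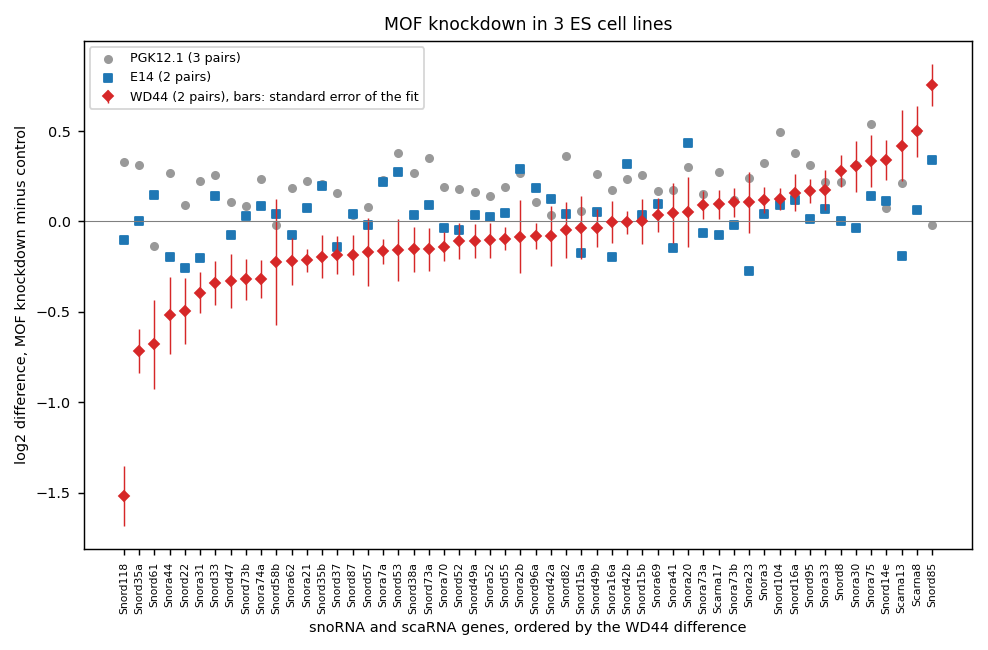
Log2 difference after MOF RNAi for each of the 54 genes (1 probeset per gene), ordered by the WD44 value, in WD44 (red, bars are the standard error of the fit), E14 (blue) and PGK12.1 (grey). Snord118 stands at -1.52 in WD44 and Snord85 at 0.76, while most genes lie within 0.5 of 0 in all 3 lines.

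In E14, 1 member was called, Snord42b, beside 1.18% of all probesets (0.492% higher). It is a C/D snoRNA within the ribosomal protein gene Rpl23a and went from 10.22 and 10.35 to 10.60 and 10.61, without overlap (0.32 ± 0.062, adjusted p = 0.0357). It was also called in PGK12.1 after MOF RNAi (0.24 ± 0.05, adjusted p = 0.0139). In WD44 it differed by -0.01 ± 0.062. The E14 call was lost when arrays were centred on their medians (adjusted p = 0.058) or treated as unpaired (adjusted p = 0.748), and on leaving out any of 12 of the 27 arrays, those of either E14 experiment included (adjusted p up to 0.469).

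The 2 box classes gave no common order. Across the 15 pairs the C/D median was above the H/ACA median in 5 and below it in 10, from -0.19 (WD44 experiment 1) to 0.06 (PGK12.1 MOF experiment 1), with a median gap of -0.03. In WD44 experiment 1 the C/D median was -0.26 and the H/ACA median -0.07, while in experiment 2 they were 0.02 and 0.00. In the PGK12.1 MOF comparison 18.2% of C/D and 26.1% of H/ACA probesets were called, beside 9.64% of all probesets. By gene these were 6 of 31 C/D and 4 of 20 H/ACA genes, since Snora3 and Snora21 each had 2 called probesets. Of the 4 scaRNA probesets, which include the 2 identical ones of Scarna17, all 4 were above 0 in each PGK12.1 MOF pair. Their medians there were 0.14, 0.33 and 0.39. All 4 were also above 0 in NSL1 experiments C and D, both double-knockdown pairs and WD44 experiment 1. Fewer were in the other pairs, down to 1 of 4 in MSL1 experiment C and E14 experiment 1 (medians -0.01 and -0.16). Classes differ in how many probesets they hold and share arrays, and the gap between them was not tested.

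**Figure D4:**
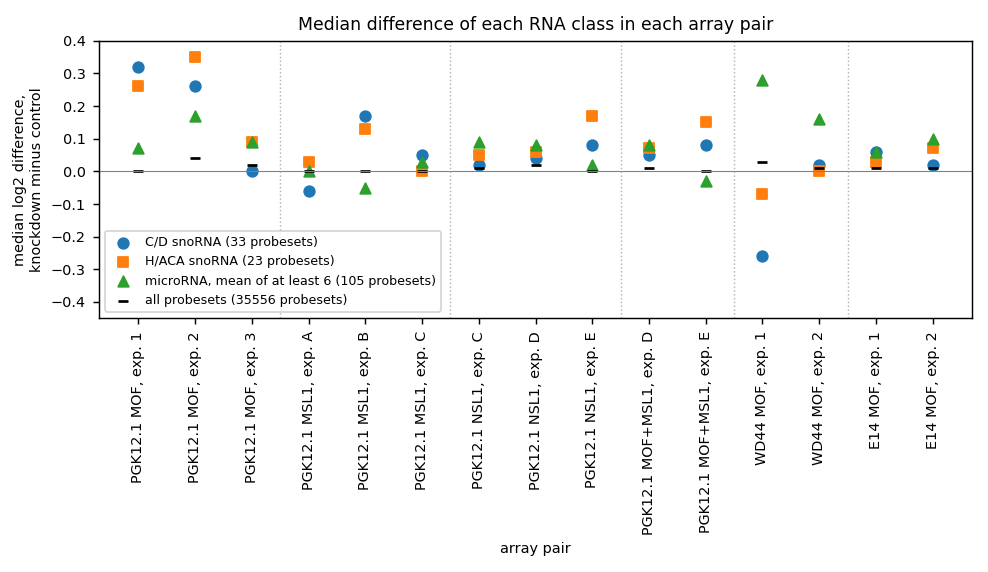
Median log2 difference in each of the 15 array pairs for C/D snoRNAs (33 probesets), H/ACA snoRNAs (23), microRNAs with a mean of at least 6 (105) and all probesets. Both snoRNA classes stand highest in PGK12.1 MOF experiments 1 and 2 (0.26 to 0.35), and the C/D class is lowest in WD44 experiment 1 (-0.26).

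Members that act in cutting the ribosomal RNA precursor were few, and 1 of them was called. The group held Snord118, Snord14e (U14), Snord22, Snora73a and Snora73b (U17), 5 genes in 6 probesets. Snord118 in WD44 was the only call in any of the 6 comparisons. The U3 gene Rnu3a, a C/D snoRNA that the choice by symbol leaves out, was called higher after NSL1 RNAi (0.67 ± 0.144, adjusted p = 0.00672). In WD44 Snord14e differed by 0.34 ± 0.11 (adjusted p = 0.113), Snord22 by -0.49 ± 0.183 (adjusted p = 0.155), Snora73a by 0.09 ± 0.078 and Snora73b by 0.10 ± 0.078. Snora73a lay between 11.87 and 12.02 on all 4 WD44 arrays. Snord22 was below its control in 11 of the 15 pairs. By contrast Snord16a and Snord95 were above their controls in all 15 pairs, and Scarna8 and Snora75 in 14, the highest counts among the members. For Snord95 the E14 differences were only 0.01 and 0.02. All 4 genes were called in these same pairs, and the share of all probesets with such counts was not taken. A control array can serve 2 knockdown arrays, so the 15 pairs are not independent. Of the 54 genes 33 were never called in the 6 comparisons, 16 were called in 1 and 5 in more. The same counts over all probesets were not taken.

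Of the 54 genes 53 lie within the span of another gene in RefSeq (GRCm38.p6), 21 of them within ribosomal protein genes and 15 within long noncoding RNA genes. The strand was not given there and was not checked. A probeset for the host was found for 28 snoRNA genes in 24 hosts. Of the 24 hosts 3 were called after MOF RNAi in PGK12.1, 2 of them higher, where 9.64% of all probesets were called. After NSL1 RNAi 2 hosts were called, beside 18.0% of all probesets. After MOF RNAi in PGK12.1 the median over these 28 was 0.22 for the snoRNAs and 0.04 for the hosts, and none of the 7 called snoRNAs with a measured host had a called host. So few genes cannot set this count apart from the share of all probesets called. Snora75 rose by 0.54 while Ncl differed by -0.07 ± 0.062 (adjusted p = 0.527), Scarna8 rose by 0.50 while Haus6 differed by -0.01 ± 0.075, and Snord16a rose by 0.38 while Rpl4 differed by 0.04 ± 0.049. Kansl2, host of Snora2b and a gene of the NSL complex, was called higher (0.28 ± 0.051, adjusted p = 0.00645), where Snora2b differed by 0.27 (adjusted p = 0.352). After NSL1 RNAi Snora2b was higher by 0.70 while Kansl2 differed by 0.07 ± 0.049 (adjusted p = 0.375). Snora30 and its host Srcap, a chromatin remodelling gene, were both called higher after NSL1 RNAi (0.48 and 0.41, adjusted p = 0.01 and 0.00097). Across the 28 genes the correlation of snoRNA and host differences in PGK12.1 was -0.20 for MOF, 0.40 for MSL1, 0.21 for NSL1 and 0.54 for the double knockdown, while for MOF it was 0.09 in the E14 line and 0.17 in WD44, a description over genes that share arrays. Ribosomal protein genes have many near-identical copies in the genome, so the values of those hosts are uncertain, and a snoRNA probeset cannot tell the mature RNA from host intron.

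**Figure D5:**
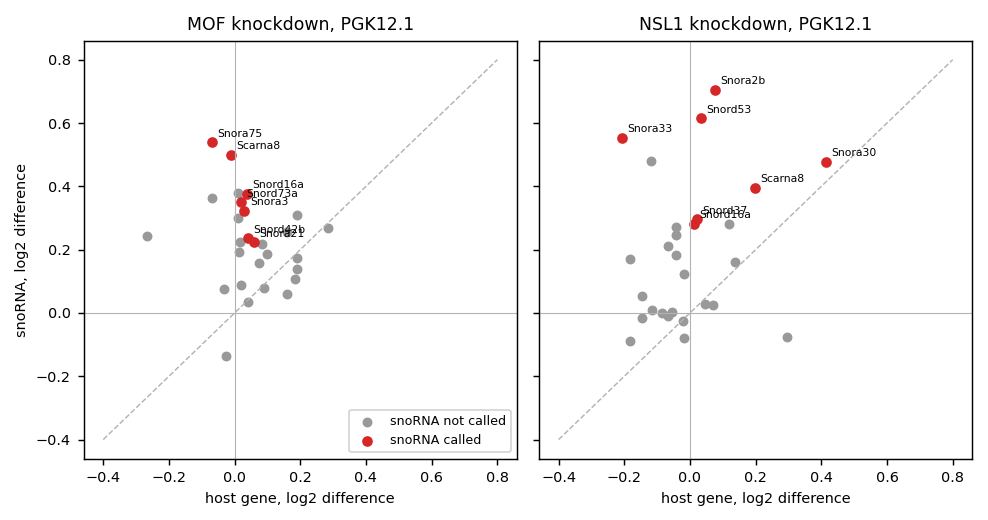
Log2 difference of each snoRNA (vertical axis) against that of its host gene (horizontal axis) for 28 genes after MOF RNAi (left) and NSL1 RNAi (right) in PGK12.1, with called snoRNAs in red and equal change on the dashed line. Called snoRNAs stand mostly above the line, with hosts near 0, and Snora30 lies near it.

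Neighbours in a host were not always called together, which is not in itself a difference between them. In 10 hosts there were 2 measured snoRNAs each. In Rack1, Snord95 was called higher after NSL1 RNAi (0.22 ± 0.053, adjusted p = 0.0142) where Snord96a differed by -0.15 ± 0.057 (adjusted p = 0.0893). In Rpl13a, Snord35a was called lower in WD44 (-0.71) where Snord33 differed by -0.34 ± 0.121 (adjusted p = 0.142). In Ncl, Snora75 and Snord82 differed by 0.54 and 0.36 (adjusted p = 0.0162 and 0.0991) after MOF RNAi in PGK12.1. Differences between neighbours were not tested. Snord118 lies in no other gene. Its neighbour Tmem107, which encodes a protein of the cilium, differed by -0.14 ± 0.08 in WD44 after MOF RNAi (adjusted p = 0.363).

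Many snoRNA hosts belong to the genes whose transcripts start within a run of pyrimidines, a start type known from ribosomal protein genes. Start windows were found for 14 hosts of called members, and 6 of the 14 held such a run, 3 of the 6 ribosomal protein genes among them. Those of the ribosomal protein hosts and of 4 others are shown, 20 bases before to 10 bases after the RefSeq start (GRCm38.p6), on the gene's strand, 5′ to 3′, with capitals marking a run of at least 5 C or T that reaches within 5 bases of the start. Such a run was found on the gene's strand in 31.4% of 32851 promoters and in 19 of 33 hosts with a promoter sequence (57.6%). It was present in Rack1 (chr11:48800340-48800369, plus strand, host of Snord95), Rpl27a (chr7:109519175-109519204, plus, Snora3), Rpl4 (chr9:64173367-64173396, plus, Snord16a) and Rpl13a (chr7:45128736-45128765, minus, Snord35a). It was not found in Rpl23 (chr11:97782430-97782459, minus, Snora21), Rps3a1 (chr3:86142659-86142688, minus, Snord73a) or Rps12 (chr10:23787200-23787229, minus, Snora33), nor in Ncl (chr1:86359446-86359475, minus, Snora75), Haus6 (chr4:86612046-86612075, minus, Scarna8) or Kansl2 (chr15:98534260-98534289, minus, Snora2b).
Rack1: tccggcggaggccgCTCTTTCTTTTTCTCC
Rpl27a: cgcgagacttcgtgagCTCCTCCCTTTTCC
Rpl4: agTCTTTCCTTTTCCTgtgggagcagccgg
Rpl13a: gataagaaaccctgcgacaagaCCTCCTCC
Rpl23: gctggacgaggtccggtcacgtggctgagt
Rps3a1: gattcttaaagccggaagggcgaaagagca
Rps12: ttaaataccgtcatgcggccaccgccggcc
Ncl: cggttggctccggggacggacgcgagctct
Haus6: agtcgggactgcgcctgcgcctgcgcagtg
Kansl2: aggcggagcagccagagggcaagctgcgcg
Snord95, Snora3 and Snord16a, of hosts with the run, and Snora21, Snord73a, Snora75 and Scarna8, of hosts without it in this window, were all called higher after MOF RNAi in PGK12.1. A match is a description of these letters and no more.

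The genes for the proteins that snoRNAs work with were read from the same fit. None of the 4 core C/D proteins (fibrillarin Fbl, Nop56, Nop58 and Snu13) and none of the 4 core H/ACA proteins (dyskerin Dkc1, Gar1, Nhp2 and Nop10) was called by limma in any of the 6 comparisons. At an unadjusted p under 0.05 there was at most 1 C/D protein and at most 2 H/ACA proteins in a comparison, in WD44 Dkc1 (-0.16 ± 0.066, adjusted p = 0.187) and Gar1 (0.19 ± 0.077, adjusted p = 0.19). Of 11 assembly factors 5 fell and 1 rose after NSL1 RNAi, where 8.87% of all probesets were called lower and 9.12% higher. Over the probesets with a mean of at least 6 and a symbol, tested alone, these shares were 21.4% and 18.4%. Znhit3, a C/D assembly factor, differed by -0.74 ± 0.087 (adjusted p = 0.000135), Ruvbl1, a helicase of the R2TP complex, by -0.31 (adjusted p = 0.00295), Shq1, a dyskerin chaperone, by -0.21 (adjusted p = 0.00901) and Phax, an export adaptor, by -0.24 (adjusted p = 0.0172). Ruvbl2 also fell and Znhit6 rose. After MOF RNAi Naf1, an H/ACA assembly factor, fell in PGK12.1 (-0.36 ± 0.083, adjusted p = 0.0196), and in WD44 Shq1 (-0.28, adjusted p = 0.0396) and Tgs1, which modifies the cap of snoRNAs made from their own promoters, fell (-0.37 ± 0.071, adjusted p = 0.0281). Of 6 nucleolar and Cajal body genes none was called, with at most 1 at an unadjusted p under 0.05 in a comparison. Of 6 genes of 3′ end trimming and decay, Exosc10 rose after MOF RNAi in PGK12.1 (0.17, adjusted p = 0.0254) and Parn fell after NSL1 RNAi (-0.21, adjusted p = 0.0442). Of 4 measured noncoding host genes Snhg5 rose after MOF RNAi in PGK12.1 (0.29 ± 0.051, adjusted p = 0.00606) and Meg3 after NSL1 RNAi (0.32 ± 0.08, adjusted p = 0.0167). After MOF RNAi in PGK12.1 4.49% of all probesets were called higher and 5.15% lower, and in WD44 1.51% were called lower. Lists this short cannot set their counts apart from such shares.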

How the data were processed

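The authors deposited log2 values per probeset and array, made with Affymetrix Expression Console and RMA (background correction, quantile normalization, probe summary) per the submitters' processing notes. Versions of these tools, and the genome build used, are not given in the sources used here. Total RNA was prepared on Qiagen RNeasy columns per the labels' protocols. How fully these kept RNAs as short as snoRNAs is not given. Probesets were named through the platform annotation (21789 with 1 symbol, 1621 with several, 12146 with none); all 60 members matched RefSeq, used for names and hosts. All 27 arrays were fitted with limma 3.58.1 (R 4.3.3) over 35556 probesets, with a block for each of 12 experiments and a coefficient per knockdown (9 residual degrees of freedom), moderated by eBayes and adjusted by Benjamini-Hochberg. Where a control served 2 knockdown arrays, fitted differences are not plain means of pairs. The block was used because members are defined by differences within an experiment, which the labels name, and because array levels stepped between experiments. Deviations of paired arrays from the group means correlated at -0.017 to 0.676, above 0.1 in 9 of 15. No 2 arrays were identical, and the number of arrays limits precision.

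Members and lists were chosen with earlier results of these data known. Genes named were Snord118, Snord35a and Snord85, called members, the most and least changed in WD44 against the other lines, the precursor-processing group, the smallest p of each list, and hosts. A host is the gene whose span holds the snoRNA; the planned same-strand condition could not be applied. The fit was tested on simulated data. Alternatives were the fit without the block, a filter on mean and symbol, median centring, cyclic loess, array weights, an eBayes trend and each array left out.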

Additional observations from a re-analysis of the deposited data

Results flagged for a closer look

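Snord118 (both probesets, with identical values) is listed because the contrast of its response to MOF RNAi between lines was called. The WD44 effect was -1.85 log2 from that in PGK12.1 and -1.63 from the mean of the other lines. Both contrasts use PGK12.1 values of 3.75 to 4.94, below the array medians, where a fall may not be measurable, so the size of these contrasts is uncertain. Against E14, where Snord118 read 7.72 to 8.02, the contrast was -1.42 and was not called (adjusted p = 0.0962). Among the alternative settings it was called with an eBayes trend (adjusted p = 0.0433) and with the filter on mean and symbol (0.00551). It was not called with the others. Both WD44 pairs ran down (-1.67 and -1.37), while in E14 the pairs were 0.06 and -0.27 and in PGK12.1 0.28, 0.80 and -0.10. Snord35a is listed for its contrast with PGK12.1 (-1.02), with WD44 pairs of -0.83 and -0.60. Its call was lost with array weights, cyclic loess and median centring (adjusted p = 0.0836, 0.0551 and 0.0615) and on leaving out any of 24 of the 27 arrays. Among the 5 PGK12.1 controls A to E, the only group large enough for a check of single arrays, no named member had an array far from the others.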

How the results depend on the processing

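Of the 15 calls after MOF RNAi in PGK12.1, 1 (Snord104) was kept under every alternative and without each array. The number called was 8 with array weights, 25 with the filter on mean and symbol, 8 with median centring, 2 with no replicate block, and 1 without the 2 experiments of 2 RNAi rounds, an alternative chosen after seeing the data. Leaving out each array gave 3 to 17. After NSL1 RNAi 10 of 11 calls were kept under every setting, 19 were called with the filter, and leaving out each array gave 4 to 13. In WD44 all 4 were kept under every setting, 10 were called with the filter, and leaving out each array gave 0 to 4. In E14 the 1 call went to 0 with median centring and with no replicate block, and to 0 to 1 with each array left out. The contrast of WD44 with PGK12.1 had 3 calls, of which the 2 of Snord118 were kept under every setting while Snord35a was lost under 3, and it had 5 with an eBayes trend, 11 with the filter and 0 to 3 with each array left out. That with E14 had 0, 2 with the trend, 3 with the filter and 0 to 2 with each array left out. That with both other lines had 2, 6 with the filter, 0 with no replicate block and 0 to 2 with each array left out. The MSL1 and double knockdown counts stayed at 0 under every alternative and without each array. With median centring the mean C/D median after NSL1 RNAi became 0.016 and the mean H/ACA median in WD44 became -0.085. No named difference changed sign in a called result. The causes were not tested. With 2 or 3 pairs per comparison the number of arrays, and for Snord118 and Snord85 in PGK12.1 experiments 1 to 3 values under 6, limit what can be seen.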
